A study of Sus scrofa with 2 samples.

Results

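Macrophage and MHC class II genes were examined in the stria vascularis (SV), the vascular epithelium of the cochlear lateral wall that keeps the endolymph rich in potassium. The 10 genes CD68, CSF1R, CD163, CD14, AIF1, SPI1, C1QA, SLA-DRA, CD74 and TYROBP were chosen by name as a reading of the macrophages along the capillaries of this tissue. Of these, 9 had a feature in the deposited table of 27622 features, and 8 were above 0 in both libraries with an RPKM value (reads scaled to the length of the gene's exons and to the depth of the library) of at least 1 in at least one, as were 16331 features in all. CD74 could not be matched to a feature and is not described.

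The SV came from pigs of a Rongchang pedigree in which the r allele of MITF, when homozygous, goes with a white coat and deafness. MITF is the transcription factor that directs the melanocyte lineage. The study describes the inheritance of deafness as recessive and, with a small share of heterozygotes hearing impaired, as semi-recessive. The heterozygous group, MITF R/r, carries 1 r allele and served as the control, so that both groups carry the mutation. The homozygous group, MITF r/r, carries no R allele. The sample labels give postnatal day 1 for both groups, whereas the study's text places this RNA before birth. Each genotype was represented by 1 library of dissected lateral wall, and no wild-type library was analysed here.

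Macrophages of the SV lie against its capillaries and are known to take part in clearing debris and in keeping the blood-labyrinth barrier tight. They depend on the receptor CSF1R and the transcription factor SPI1 (PU.1), and carry lysosomal proteins such as CD68. MHC class II molecules are pairs of alpha and beta chains that present peptides from the endosome to CD4+ T cells; in pigs they are named SLA, and the SLA-DR, SLA-DQ and SLA-DM pairs correspond to human HLA-DR, HLA-DQ and HLA-DM. The allele studied here concerns the M promoter of MITF, which is used in melanocytes, while relatives and other isoforms of MITF are known from osteoclasts, mast cells and macrophages.

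Reads worked out from the RPKM values came to 15829244 for R/r and 14258672 for r/r, so that 1 read on a gene of 1 kb was worth 0.0632 and 0.0701 RPKM. Differences are given as the log2 ratio of RPKM values, r/r over R/r, with a 95% exact Clopper-Pearson interval on the reads of both libraries, and levels with a 95% exact Poisson interval. The intervals hold counting error alone. As each genotype has a single library, there is no replicate check and no test, and each value compares these 2 libraries, not the genotypes. The 3 features of MITF had log2 ratios of -0.51, -0.45 and -0.48, and 9 of 10 melanocyte and intermediate cell genes compared were lower in the r/r library by at least 2-fold. Most of these melanocyte genes were reported as lower by the study from the same 2 libraries. Their ratios are therefore no independent check of the labels. RPKM does not separate the M transcript from the other MITF transcripts. The tissue was marked by COCH of the fibrocytes (6826 and 4914 RPKM) and KCNE1 of the marginal cells (278.3 and 248.0 RPKM), and the median log2 ratio was -0.15 over 4 fibrocyte and basal cell genes and -0.30 over 6 marginal cell genes.

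The macrophage and MHC class II genes were present in both libraries at levels within 2-fold of each other. None of the 8 genes compared was 2-fold lower or higher in the r/r library; over all features compared, 2.2% were at least 2-fold lower and 1.78% at least 2-fold higher. The median log2 ratio of the 8 genes was -0.13, beside -0.02 over all features compared. Ratios were below 0 for 6 of the 8 genes, against 53.3% of all features. CSF1R alone had an interval wholly below 0, which is 1 of 8 genes against 14.5% of features, and no gene had an interval wholly above 0, against 11.2%. The share with an interval below 0 is thus close to that of the whole table. In bulk tissue, the number of macrophages and the RNA per macrophage cannot be told apart.

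**Figure D1:**
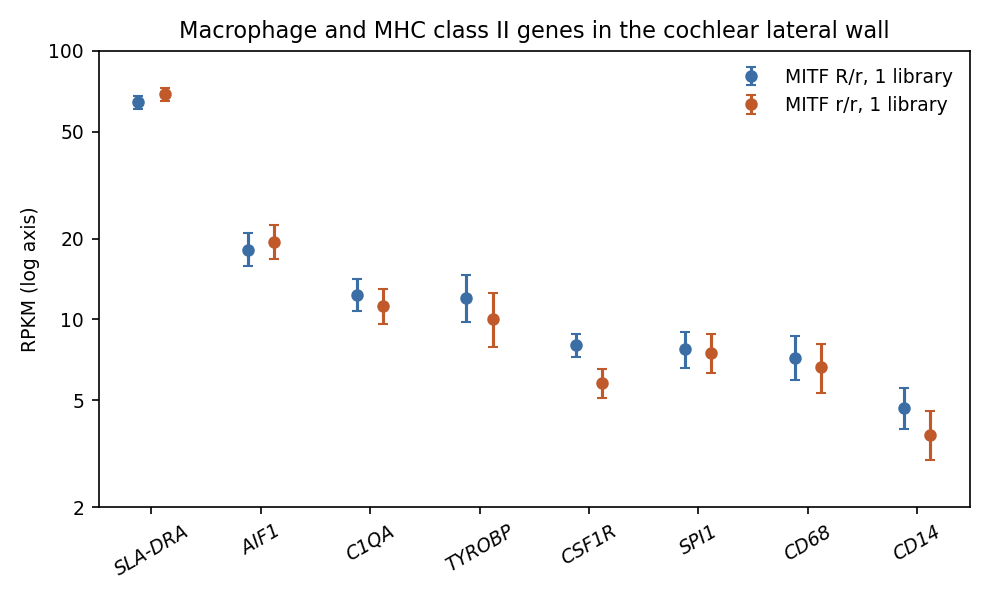
RPKM values (log axis) of the 8 genes compared, with 1 point per gene and library and bars for the 95% exact Poisson interval on the reads. SLA-DRA stands highest and CD14 lowest in both libraries, and CSF1R is the gene whose bars (7.25 to 8.85 and 5.12 to 6.56 RPKM) do not overlap.

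SLA-DRA, the alpha chain of the DR molecule and the most abundant of the genes, had 64.3 RPKM (95% interval 60.8 to 67.9) in the R/r library and 68.8 RPKM (65.0 to 72.8) in the r/r library. These values rest on 1272 and 1227 reads of the feature ENSSSCG00000001453, deposited as SLA-DRA1. The log2 ratio was 0.10 (95% interval -0.02 to 0.21), the narrowest interval of the set, and 71.5% of features compared had a lower ratio. The level in the R/r library was higher than that of 92.0% of the features above 0 in both libraries. A difference of more than 1.16-fold upwards or below 0.989 of the R/r level lies outside the counting interval.

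AIF1, an actin-binding protein of macrophages and microglia also called IBA1 (ENSSSCG00000001408), had 18.2 RPKM (15.8 to 20.9) in the R/r library and 19.5 RPKM (16.8 to 22.5) in the r/r library, from 199 and 192 reads. Its log2 ratio was 0.10 (-0.19 to 0.39). SLA-DRA and AIF1 were the only members with ratios above 0, and both intervals include 0. Within each library, the RPKM value of SLA-DRA was 3.53-fold that of AIF1.

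CSF1R, the receptor for the growth factors CSF1 and IL34 on which macrophages depend (ENSSSCG00000014441), had 8.02 RPKM (7.25 to 8.85) in the R/r library and 5.81 RPKM (5.12 to 6.56) in the r/r library. The r/r level was 0.724 of the R/r level (95% interval 0.617 to 0.849), a log2 ratio of -0.47 (-0.70 to -0.24), counted on 397 and 259 reads. This was the lowest ratio of the set, although 8.74% of all features compared had a lower one. Its interval did not overlap that of SLA-DRA, so the fold of SLA-DRA over CSF1R went from 8.02 in the R/r library to 11.9 in the r/r library.

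CD14, the co-receptor for lipopolysaccharide (ENSSSCG00000014369), was the lowest of the 8 genes, with 4.67 RPKM (3.90 to 5.54) in the R/r library and 3.72 RPKM (3.01 to 4.55) in the r/r library. Its log2 ratio was -0.33 (-0.73 to 0.07), from 131 and 94 reads. TYROBP, the adaptor also called DAP12 that passes signals from activating receptors such as TREM2 (ENSSSCG00000002919), had 12.02 RPKM (9.79 to 14.6) and 10.04 RPKM (7.91 to 12.6) in the same order. Its log2 ratio was -0.26 (-0.71 to 0.18), from 101 and 76 reads, the fewest of the 8. The intervals of CD14 and TYROBP both include 0.

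C1QA, a chain of the C1q complex that starts the classical complement pathway (ENSSSCG00000003524), had 12.3 RPKM (10.7 to 14.1) in the R/r library and 11.2 RPKM (9.59 to 13.0) in the r/r library. The log2 ratio was -0.14 (-0.44 to 0.16). CD68, a glycoprotein of the lysosome membrane (ENSSSCG00000017956), had 7.22 RPKM (5.93 to 8.70) in the R/r library and 6.63 RPKM (5.34 to 8.14) in the r/r library. Its log2 ratio was -0.12 (-0.54 to 0.29), from 110 and 91 reads. The differences of both genes were within counting error.

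SPI1, the transcription factor PU.1 (ENSSSCG00000013237), was closest to equal, with 7.74 RPKM (6.61 to 9.01) in the R/r library and 7.51 RPKM (6.34 to 8.84) in the r/r library. Its log2 ratio was -0.04 (-0.37 to 0.29). The feature deposited as CD163, a scavenger receptor for haptoglobin and haemoglobin, had 0.0457 RPKM from 2 reads in the R/r library and 0.0254 RPKM from 1 read in the r/r library. This feature, ENSSSCG00000010787, carries the name SCART1, a related scavenger receptor, in the Ensembl name table, so that its identity is uncertain. It was under the minimum of 1 RPKM, and no statement on CD163 can be made from it.

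**Figure D2:**
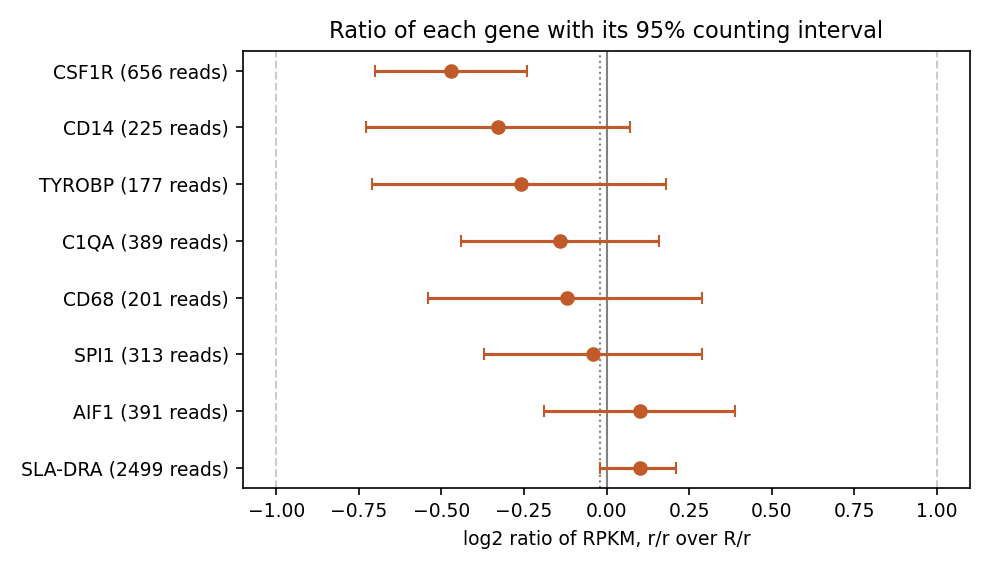
Log2 ratio of RPKM values, r/r over R/r, of the 8 genes, with bars for the 95% Clopper-Pearson interval and the reads of both libraries beside each name. The solid line marks 0, the dotted line the median of all features compared (-0.02) and the dashed lines 2-fold. Only the bar of CSF1R, from -0.70 to -0.24, leaves out 0.

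Since RPKM is scaled to gene length, the levels of the genes can be placed in order. In the R/r library the order was SLA-DRA, AIF1, C1QA, TYROBP, CSF1R, SPI1, CD68 and CD14. C1QA and TYROBP had overlapping intervals, as did CSF1R with SPI1 and SPI1 with CD68. In the r/r library CSF1R moved from the fifth place to the seventh, behind SPI1 and CD68, and every neighbouring pair from C1QA down to CSF1R overlapped. SLA-DRA and AIF1 at the top and CD14 at the bottom were separate from their neighbours in both libraries.

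Reads of several genes were then summed, in groups chosen after the values were seen. All 8 genes together had 2591 reads in the R/r library and 2260 reads in the r/r library, with a log2 ratio of -0.05 (-0.13 to 0.04), and SLA-DRA alone gave 1272 and 1227 of these reads. Without SLA-DRA, the other 7 genes had 1319 and 1033 reads, and their log2 ratio was -0.20 (-0.32 to -0.08). Without CSF1R as well, the remaining 6 genes had a log2 ratio of -0.10 (-0.24 to 0.04), so the interval of the 7 genes left out 0 with CSF1R and not without it.

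**Figure D3:**
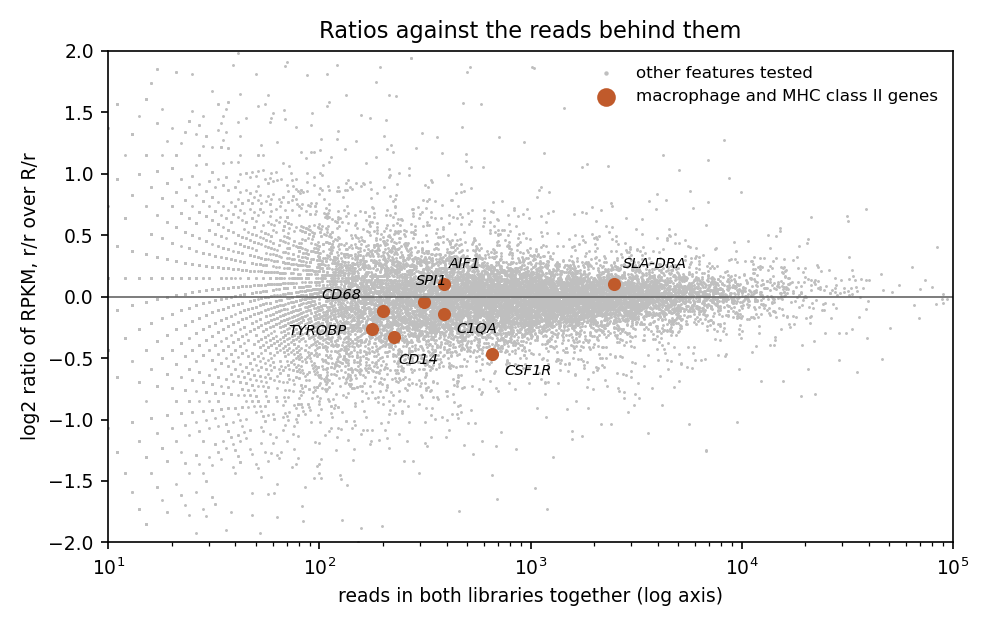
Log2 ratio of RPKM values against the reads of both libraries together (log axis), for the 8 genes (large points, named) and all other features compared (small points). The 8 genes lie between 177 and 2499 reads within the cloud of other features, and CSF1R is the lowest of them, with 8.74% of all features compared below it; 394 features lie outside the axes.

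Macrophage partner genes were taken from 7 lists, of which 72 genes were compared; the MHC class II lists are not among these and are given further on (interval wholly below 0 for 0 of 5 chains and 1 of 13 transcription and loading genes). Of the 72 genes, 51 had a ratio below 0 (70.8%, against 53.3% of all features) and 21 above, and the median was -0.14. The interval lay wholly below 0 for 18 genes (25.0%, against 14.5% of all features) and wholly above 0 for 6 genes (8.33%, against 11.2%). CD48 alone was at least 2-fold lower, against 2.2% of all features, and no gene was 2-fold higher, against 1.78%. The median number of reads behind these genes was 248, summed over the libraries, and 449 for the whole table. Genes named below whose interval leaves out 0 were in part singled out after their values were seen.

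Receptors and scavengers of the macrophage surface had a median log2 ratio of -0.26 over 9 genes. Of these, 6 were below 0, against 53.3% of all features. CD36, a receptor for oxidised lipids, had 14.3 RPKM in the R/r library and 9.16 RPKM in the r/r library, a log2 ratio of -0.64 (-0.92 to -0.36). CX3CR1, the fractalkine receptor, followed at -0.48 (-0.88 to -0.08), and the scavenger receptor STAB1 at -0.24 (-0.42 to -0.07). The integrin chains of complement receptor 3, ITGAM and ITGB2, had log2 ratios of -0.42 and -0.26 with intervals that include 0.

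Not all surface genes lay on that side. FOLR2, a folate receptor of tissue macrophages, had 110.8 RPKM in the R/r library and 127.9 RPKM in the r/r library, a log2 ratio of 0.21 (0.12 to 0.29). Its level was 13.8-fold that of CSF1R in the R/r library and 22.02-fold in the r/r library, and reads of other folate receptors could be counted with it. The mannose receptor MRC1, at 1.24 and 1.65 RPKM, had the highest log2 ratio of the list at 0.41 (-0.04 to 0.87). ADGRE1, the F4/80 antigen that marks macrophages in mice, was close to 0 at 0.0641 and 0.0474 RPKM, and MARCO, TIMD4, LYVE1, SIGLEC1, CCR2 and CLEC7A were under 1 RPKM in both libraries.

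All 7 complement genes compared had a ratio below 0, against 53.3% of all features, with a median of -0.26. ITGB2, given above with the surface genes, is among them. The other C1q chains C1QB and C1QC had log2 ratios of -0.10 and -0.11, close to that of C1QA, and the 3 chains together had 787 reads in the R/r library and 655 reads in the r/r library, a log2 ratio of -0.11 (-0.27 to 0.04). The intervals lay below 0 for C3, the central component of complement, at -0.49 (-0.61 to -0.38), and for the anaphylatoxin receptor C3AR1 at -0.51, with an interval that ended at -0.03. C3 had 25.9 RPKM in the R/r library and 18.4 RPKM in the r/r library.

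Genes of the activating receptor pathway around TYROBP had a median log2 ratio of -0.03 over 11 genes, close to that of all features, which turned to 0.10 with a minimum of 5 RPKM. FCER1G, the Fc receptor gamma chain and the other adaptor of this kind, had 13.8 RPKM in the R/r library and 12.4 RPKM in the r/r library, a log2 ratio of -0.14 (-0.53 to 0.24). TREM2, a receptor that uses TYROBP, had the lowest ratio at -0.51, from 19 and 12 reads, and its interval of -1.69 to 0.61 includes 0. The interval lay below 0 for INPP5D, the phosphatase SHIP1, at -0.45 (-0.83 to -0.07) and above 0 for SIRPB1, a further receptor that uses TYROBP, at 0.37 (0.14 to 0.60). SIRPB1 belongs to a family of near relatives between which reads can be split.

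The list of CSF1R ligands and macrophage transcription factors had a median log2 ratio of -0.17 over 9 genes, which turned to 0.07 with a minimum of 5 RPKM. Of the ligands, IL34 had 15.25 and 12.9 RPKM and a log2 ratio of -0.24 (-1.28 to 0.77), on 21 and 16 recovered reads. The feature described as CSF1 had 6 and 3 recovered reads and the lowest ratio of the list, -0.85 (-3.48 to 1.38). The gene lengths recovered with them, 87 and 94 bases, are shorter than the 100-bp reads sequenced. The real reads can thus be multiples of those recovered, and both intervals can be too wide. Both intervals include 0, and whether either ligand differed cannot be told from them. Among the transcription factors, IRF5 had a log2 ratio of -0.66 (-1.20 to -0.14), from 2.20 to 1.39 RPKM. IRF8, the partner of SPI1 in macrophages, had the same ratio of -0.66 on fewer reads (-1.64 to 0.28).

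Toll-like receptors and genes of lipopolysaccharide recognition had a median log2 ratio of 0.05 over 9 genes. This was the one median above 0 among the 7 macrophage partner lists. Of the 9 genes, 3 had a ratio below 0, against 53.3% of all features. TLR4, which binds lipopolysaccharide handed over by CD14, had a log2 ratio of -0.40 (-0.80 to 0.00), beside -0.33 for CD14 itself. LY96, the MD-2 subunit of the same receptor complex, had 0.11 (-0.25 to 0.46). The signalling adaptor MYD88 had 23.9 RPKM in the R/r library and 24.9 RPKM in the r/r library. The extremes were IRAK3, an inhibitor of this pathway, at -0.63 (-1.27 to 0.00, the upper end just under 0), and the adaptor TICAM2 at 0.42 (0.06 to 0.78).

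Genes of the lysosome and the oxidative burst were the most deeply read of the 7 macrophage partner lists, with a median of 1627 reads per gene summed over the libraries and a median log2 ratio of -0.11 over 16 genes. The interval lay below 0 for 7 of them (43.8%, against 14.5% of all features) and above 0 for 3 (18.8%, against 11.2%), and deeper reads give narrower intervals. CYBB, the catalytic subunit of the phagocyte NADPH oxidase, had 5.15 RPKM in the R/r library and 3.43 RPKM in the r/r library, a log2 ratio of -0.59 (-0.94 to -0.24). The proteases CTSD and CTSL had log2 ratios of -0.45 (-0.67 to -0.23) and -0.37 (-0.51 to -0.22). LAPTM5, a lysosomal membrane protein of blood cells, had a log2 ratio of -0.37 (-0.62 to -0.12).

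The oxidase subunits NCF1 and NCF4 had log2 ratios of -0.59 (-1.52 to 0.30) and -0.12 (-0.55 to 0.32), both with intervals that include 0. The antibacterial enzyme LYZ had the highest ratio of the list, 0.52 (-0.07 to 1.13), from 44 and 57 reads. CTSB and LAMP2, which most cells express, had 244.8 and 291.1 RPKM in the R/r library and a log2 ratio of 0.06 each. In bulk tissue the ratios of this list, those below 0 included, cannot be assigned to macrophages alone.

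Genes of the leukocyte cytoplasm and membrane, listed beside AIF1, had a median log2 ratio of -0.22. Of the 12 ratios, 11 were below 0, against 53.3% of all features. CD48, a surface protein of leukocytes, had 3.70 RPKM in the R/r library and 1.69 RPKM in the r/r library, from 56 and 23 reads. Its log2 ratio of -1.13 (-1.90 to -0.41) was the lowest of the 72 macrophage partner genes compared. The upper end of its interval is short of 2-fold. The integrin activator FERMT3 and the actin bundler LCP1 had log2 ratios of -0.51 (-0.88 to -0.13) and -0.28 (-0.48 to -0.09). PTPRC, the CD45 antigen carried by all leukocytes, had 3.66 and 3.58 RPKM, a log2 ratio of -0.03 (-0.40 to 0.34), and NCKAP1L, of the WAVE actin complex, had the highest ratio at 0.20.

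**Figure D4:**
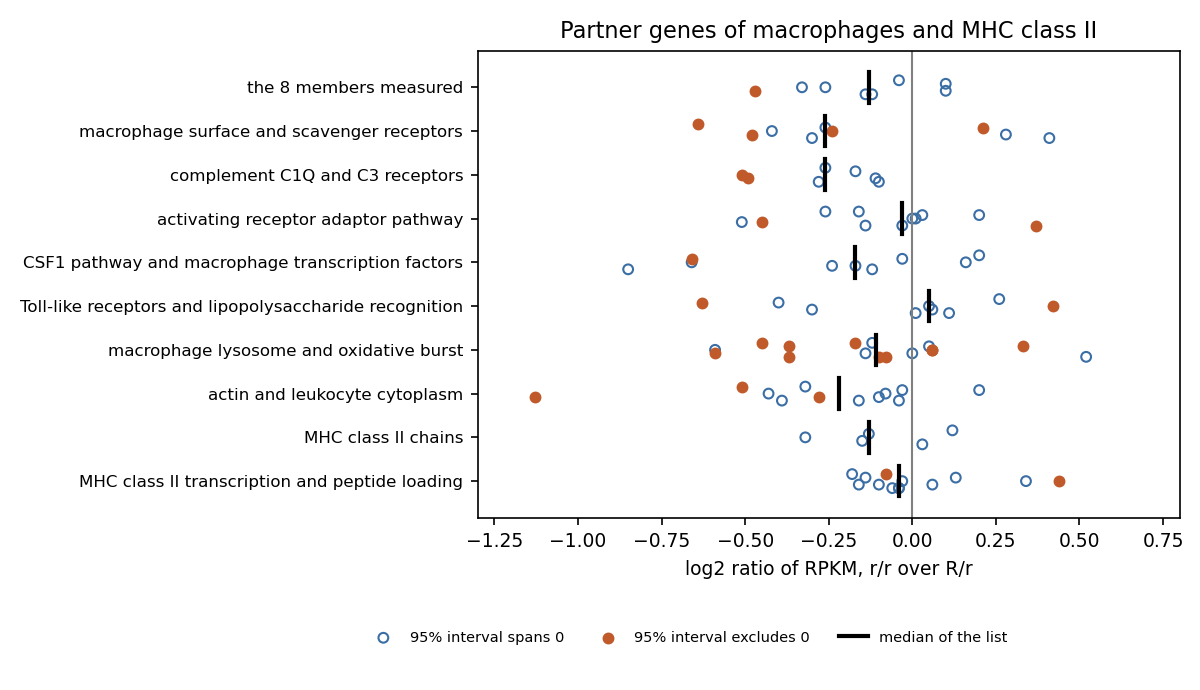
Log2 ratio of RPKM values, r/r over R/r, of the genes compared in each list (1 point per gene; filled where the 95% counting interval leaves out 0, open where it includes 0), with a bar at the median of each list. The complement points all lie below 0, as do 53.3% of all features compared. The lowest point, among the leukocyte genes, is CD48 at -1.13.

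Among the chains of MHC class II, none of 5 further genes had an interval that left out 0 (over all features, 14.5% lay below 0 and 11.2% above), and their median log2 ratio was -0.13. SLA-DRB1, the beta chain that pairs with SLA-DRA, had 9.21 RPKM in the R/r library and 9.39 RPKM in the r/r library, a log2 ratio of 0.03 (-0.35 to 0.41). SLA-DRA was 6.98-fold and 7.33-fold above it. SLA-DQA1 and SLA-DQB1, which form the DQ molecule, had levels close to each other, with 31.5 and 29.6 RPKM in the R/r library and 28.5 and 23.7 RPKM in the r/r library. Their log2 ratios were -0.15 (-0.31 to 0.02) and -0.32 (-0.65 to 0.01).

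SLA-DMA and SLA-DMB, which together exchange peptides in the endosome, had 11.3 and 11.5 RPKM in the R/r library and log2 ratios of -0.13 (-0.51 to 0.24) and 0.12 (-0.14 to 0.38). SLA-DOB was under 1 RPKM in both libraries, at 0.236 and 0.840, and so was not compared. Its log2 ratio was 1.83 (0.31 to 3.63), from 5 and 16 reads. With SLA-DRA, the 6 chains above the minimum had 2626 reads in the R/r library and 2367 reads in the r/r library. The log2 ratio of this sum was 0.00 (-0.08 to 0.08). SLA-DRA alone gave 1272 and 1227 of these reads, and the median log2 ratio of the other 5 chains was -0.13. Further class II features were noticed in the table after the values were seen. SLA-DRB2 had 10.22 and 11.34 RPKM, and SLA-DQB2 had 2.70 and 1.09 RPKM from 11 and 4 reads. The beta chains are near-identical and vary between haplotypes, so reads can be split between these features and single values are uncertain.

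Genes that switch on class II transcription or load its peptides had a median log2 ratio of -0.04 over 13 genes. CIITA, the master regulator of class II genes, had 1.54 RPKM in the R/r library and 1.47 RPKM in the r/r library, on 22 and 19 reads, a log2 ratio of -0.06 (-1.03 to 0.89). The RFX subunits RFX5, RFXAP and RFXANK had log2 ratios of 0.06, -0.03 and 0.13, and the NF-Y subunits NFYA, NFYB and NFYC had -0.18, -0.04 and -0.10. The protease CTSS, which trims the invariant chain, had 18.3 and 16.6 RPKM. The highest ratio was 0.44 (0.13 to 0.75), for a feature described as CREB1 that the Ensembl name table calls ATF1, its near relative. The interval of the protease LGMN, at -0.08 (-0.14 to -0.02), lay just below 0.

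Several of these genes are also expressed outside macrophages, so markers of other cells were read in the same libraries. T cell markers summed to 2.33 RPKM in the R/r library and 2.97 RPKM in the r/r library, and 1 of 12 measured genes reached 1 RPKM. CD28 was at 0 in both libraries, and CD3E had 1 read in each. For dendritic cells the sums were 2.09 and 2.23 RPKM, with CD1A at 0. Natural killer cell markers summed to 9.74 and 10.4 RPKM, nearly all from NKG7, with GZMB, NCR1 and NCR3 at 0.

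B cell markers summed to 12.6 RPKM in the R/r library and 10.9 RPKM in the r/r library, with MS4A1 at 1 read in each and BLK at 0. JCHAIN, which joins secreted antibodies, had the lowest ratio of that list at -0.74 (-1.27 to -0.23). Neutrophil markers summed to 12.2 and 9.07 RPKM, with 3 of 11 genes at 1 RPKM or more and CAMP at 0. Mast cell markers summed to 49.4 and 53.2 RPKM, of which GATA2, a factor of other lineages too, made up 47.5 and 51.7 RPKM. The T cell, natural killer cell and dendritic cell lists each had 1 gene at 1 RPKM or more, while 4 of 10 B cell genes reached it.

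Osteoclasts share the lineage of macrophages and also express CSF1R and SPI1. Their 12 markers summed to 244.8 RPKM in the R/r library and 223 RPKM in the r/r library, mostly from CTSK and MMP9, and the median log2 ratio over 8 genes was 0.04, which turned to -0.04 with a minimum of 5 RPKM. MMP9 had a log2 ratio of -0.52 (-0.61 to -0.44), while the calcitonin receptor CALCR and the proton pump subunit ATP6V0D2 had 0.54 and 0.65 with intervals above 0. OCSTAMP and SIGLEC15 were at 0 in both libraries. The part of osteoclasts in the levels of CSF1R and SPI1 was not tested.

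Genes of blood and of the vessels were read for the capillaries along which the macrophages lie. All 5 red cell genes compared had ratios below 0, with a median of -0.28 and sums of 3052 RPKM in the R/r library and 2464 RPKM in the r/r library. Endothelial markers summed to 345 and 338 RPKM (median log2 ratio -0.07 over 11 genes), and pericyte markers to 230.1 and 213.8 RPKM (median -0.11 over 7 genes). The feature deposited as VWF, the clotting protein of endothelium and platelets, had the lowest ratio of the endothelial list at -0.73 (-1.08 to -0.38). The Ensembl name table calls this feature ANO2, so that its identity is uncertain. Of the 8 macrophage and MHC class II genes, 6 also had ratios below 0, while SLA-DRA and AIF1 were above it. Over all features compared, 53.3% had a ratio below 0. The part of blood content in the ratios of the 8 genes was not tested.

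The melanocyte and intermediate cell markers, by contrast, summed to 330.4 RPKM in the R/r library and 15.4 RPKM in the r/r library, with a median log2 ratio of -5.28 over 10 genes. The lowest ratio among the 8 macrophage and MHC class II genes was -0.47. The lowest among the 72 macrophage partner genes compared was -1.13. Of the class II features noticed later, SLA-DQB2 had -1.31 (-3.42 to 0.45), from 11 and 4 reads.

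**Figure D5:**
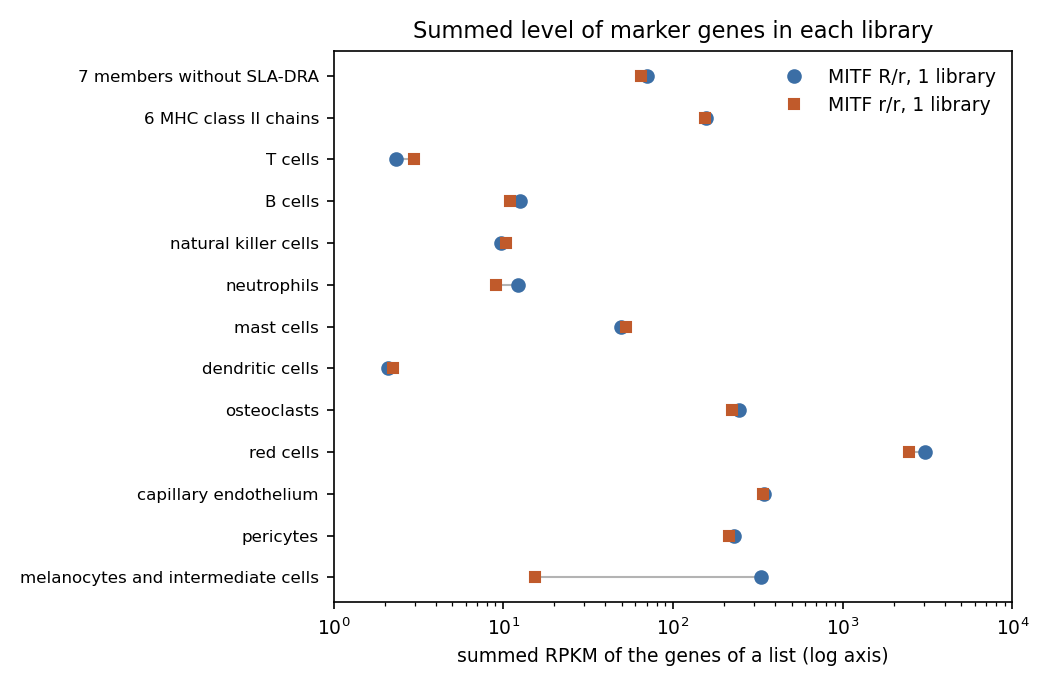
Summed RPKM (log axis) of the measured genes of each list in the R/r library (circles) and the r/r library (squares). The 7 macrophage genes without SLA-DRA (70.2 and 64.4 RPKM) and the 6 MHC class II chains (157.4 and 153.3 RPKM) lie close together in both libraries, and the melanocyte and intermediate cell list is the one set far apart.

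A further 7 macrophage genes were noticed in the table after the values were seen, and their median log2 ratio was -0.15. The pore-forming protein MPEG1 had 7.74 and 6.82 RPKM, a log2 ratio of -0.18 (-0.37 to 0.00). The lysosomal protease CTSH had -0.29 (-0.41 to -0.18), and MS4A7, a membrane protein of tissue macrophages, had -0.50 (-1.21 to 0.19).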

How the data were processed

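RNA of dissected cochlear lateral wall with its SV was sequenced by the authors as 100-bp paired-end reads, 1 library per genotype. Per the submitters' processing notes, reads were aligned to Sscrofa10.2 with TopHat2 (2.0.7). The authors deposited RPKM values, in which reads are scaled to exon length and library depth. How reads were filtered and counted, and on which annotation, is not given in the sources used here. A pair of columns without headings has entries for 22 features, which for 17 of them were the difference and the ratio of the RPKM values (R/r against r/r, within 1e-06), and was not used.

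Features were matched by deposited symbol and, where that was blank or outdated, by description, synonym or Ensembl name; 254 of 287 listed genes had a feature. Of features with the same symbol, that of highest mean RPKM was kept. Log2 ratios of RPKM (r/r over R/r) had no pseudocount and were taken for features above 0 in both libraries with at least 1 RPKM in at least one. Whole reads were worked out from the spacing of the RPKM values: the totals chosen were those that gave whole gene lengths (within 0.01 base for 90.0% of 3000 genes), and reads were found for all 20862 features above 0. These are the lowest whole numbers that fit both libraries, and where the real reads are a multiple of them the intervals are too wide. Features held 89.4% of the R/r reads and 89.3% of the r/r reads. The steps were tested on simulated data.

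The members and lists were chosen with earlier results of these data known. Named are all members, in each list the genes at least 2-fold apart with an interval that leaves out no change, or else the lowest and highest ratio, and markers at 0; a few genes that this rule names are left out of the text. Alternatives were pseudocounts of 0.1 and 1 RPKM, no minimum and minimums of 5 and 10 RPKM, scaling by median, upper quartile and to TPM, sums over features of a symbol, Ensembl features alone, a threshold of 1.5-fold, each member left out, and list sums without their highest gene. Sequences of the genes were not analysed here. Scripts ran in Python 3.11.15 with scipy 1.17.1, numpy 2.4.6, pandas 2.3.3 and, for figures, matplotlib 3.10.9.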

Additional observations from a re-analysis of the deposited data

How the results depend on the processing

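The 8 members kept their sign under all alternatives run for single genes (75 values), and the log2 ratio of CSF1R ranged from -0.50 with TPM scaling to -0.41 with a pseudocount of 1 RPKM. The median of the members ranged from -0.17 with TPM scaling to -0.02 with a minimum of 10 RPKM, and no member was 1.5-fold apart. With a minimum of 10 RPKM, 4 members were left, and 2 of them had a ratio below 0. Scaling shifted all log2 ratios by at most 0.04. With a minimum of 5 RPKM the median changed sign for the adaptor pathway (0.10), the CSF1 pathway and transcription factors (0.07) and osteoclasts (-0.04). The median of the melanocyte list was -3.49 with a pseudocount of 1 RPKM, and that of the fibrocyte and basal cell list was -0.25 with no minimum and -0.18 with TPM scaling. Without its highest gene, the summed r/r level over the R/r level became 0.788 for the surface receptors, 0.704 for B cells, 1.76 for natural killer cells, 0.735 for mast cells, 1.24 for dendritic cells, 0.0894 for melanocytes, 0.913 for marginal cells, 0.903 for fibrocytes and basal cells, and 0.649 for the further MHC class II features. No paired analysis was possible because each genotype had a single library, which also means that none could be left out. Depth limits the low genes most: 3 reads on 1 kb amount to 0.190 RPKM in the R/r library and 0.210 RPKM in the r/r library.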
